A study of Mus musculus with 6 samples.

Results

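Solute carriers are membrane proteins that move amino acids, sugars, nucleosides, organic acids, metal ions and inorganic ions across the plasma membrane and the membranes of organelles. Most of them work as facilitators or are driven by ion gradients, and a large family sits in the inner membrane of mitochondria. In the embryonic gonad, as in other growing tissues, they supply dividing cells with nutrients, nucleosides and trace metals and set intracellular pH and calcium.

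The genes described here are those whose symbol consists of Slc, a family number, a letter from a to f and a member number. Of the 11736 genes in the deposited tables, 175 had such a symbol. Of 6 carriers named beforehand to be left out (Slc2a1, Slc2a3, Slc16a1, Slc16a3, Slc22a18 and Slc38a4), 5 were among them, which left 170 genes of 42 families. Another 4 symbols (Slc4a1ap, Slc7a6os, Slc9a3r1 and Slc9a3r2) only begin with the pattern and were not counted. The tables list genes with a mean of at least 1.005 RPKM (read counts divided by gene length and library depth) in at least 1 group, so weakly expressed carriers are not analysed here. Of the 170, 1 (Slc7a11) had a Cdyl-Het mean under 1 in the deposited values and was listed only through its level in Cdyl-KO.

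RNA was measured in gonadal somatic cells sorted from male (XY) C57BL/6 embryos of stage E11.5. There were 3 libraries with the genotype Cdyl-Het, Nr5a1-hCD271 and 3 with Cdyl-KO, Nr5a1-hCD271. Both groups thus carried the hCD271 surface marker under the name of Nr5a1, a transcription factor of gonadal somatic cells, and the cells were taken by magnetic sorting for that marker. Cdyl encodes a chromodomain protein of repressive chromatin. The control group is heterozygous and not wild type, how Cdyl was mutated is not known here, and nothing says whether a sample was 1 embryo or a pool. The p-values therefore speak only of the spread among these 6 samples, and that spread may be technical.

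Levels are given as scaled RPKM, the deposited value divided by a scaling factor per library, and changes as Cdyl-KO minus Cdyl-Het on the scale of log2(scaled RPKM + 1), which understates changes of weakly expressed genes. Tests are limma's with Benjamini-Hochberg adjustment over all 11736 genes and a threshold of 0.05. Cdyl itself was read at 7.78, 8.04 and 8.27 scaled RPKM in Cdyl-Het and at 6.77, 6.95 and 7.01 in Cdyl-KO (log2 change -0.19, limma adjusted p = 0.0635), which does not check the labels where the altered part is unknown. The depth implied by the smallest steps between values was 34.6 to 45.2 M reads per library. With exon lengths from GENCODE M21, the lowest value of any of the 170 genes in any library stood for about 100 reads (Slc25a29) and the median of their lowest values for 559.

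Marker genes checked the cell type and the other cells a gonad preparation can hold. All 7 listed genes of gonadal somatic cells were read, with summed levels of 316 to 360 scaled RPKM in Cdyl-Het and 349.5 to 386 in Cdyl-KO, and 3 of them rose (Nr0b1, Emx2 and Lhx9; Lhx9 passed in 2 of the 6 fits with 1 library omitted, with limma adjusted p of up to 0.0855). Of 8 Sertoli cell genes in the tables, 7 fell and 1, Sry, rose (sums 125 to 163 and 71.4 to 95.2). Of 9 endothelial genes, 4 fell (Kdr, Tek, Cdh5 and Egfl7), with sums of 37.96 to 43.1 in Cdyl-Het and 26.2 to 29.8 in Cdyl-KO. With 1 library omitted, Cdh5 passed in 2 and Egfl7 in 1 of the 6 fits (limma adjusted p of up to 0.110 and 0.0930). Tek was close to the threshold (limma adjusted p = 0.0466), and its calls in those fits are not given here. Of 6 genes of neurons, glia and neural crest, 2 rose (sums 7.34 to 9.74 and 12.6 to 16.3), and 8 others of that list, among them Elavl3 and Sox10, are not in the tables. The 6 erythroid genes in the tables, all of hemoglobin, had changes below 0 without a call (median -0.69) and varied widely within both groups (sums 51.8 to 260.2 and 55.1 to 160.4). Of 7 genes of mesonephric and kidney epithelium, 1 rose (Pax8, which passed in 1 of the 6 fits with 1 library omitted, with adjusted p of up to 0.0706; sums 14.9 to 20.9 and 16.8 to 20.4), while the 1 macrophage gene and the 2 germ cell genes in the tables stayed under 5.2 scaled RPKM in sum. Over all genes 4.82% rose and 3.09% fell. No marker gene in the tables was at 0 in all libraries. In such bulk samples, fewer cells of a type and less RNA per cell cannot be told apart.

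Most solute carrier genes differed little between the groups. Of the 170, 5 were higher in Cdyl-KO (Slc8a2, Slc7a2, Slc39a3, Slc25a39 and Slc30a5), 7 were lower (Slc29a1, Slc16a4, Slc18b1, Slc45a4, Slc20a1, Slc6a8 and Slc4a4) and 158 did not pass the threshold. The called share was 7.06%, beside 7.92% of all genes, with 2.94% higher (4.82% of all genes) and 4.12% lower (3.09% of all genes), which is near the background. The means of 119 of the 170 genes lay within 1.2-fold of each other, and 1 gene, Slc8a2, changed by at least 2-fold. The classes described below are small, so their counts are to be read against these shares, and against the 51.0% of all genes that lay below 0. On the deposited values without scaling, 4 were higher (2.35%, beside 2.60% of all genes) and 27 lower (15.9%, beside 13.3% of all genes). In that fit all genes together had a median of -0.12, against -0.00 after scaling. Every change below is relative to this shift.

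**Figure D1:**
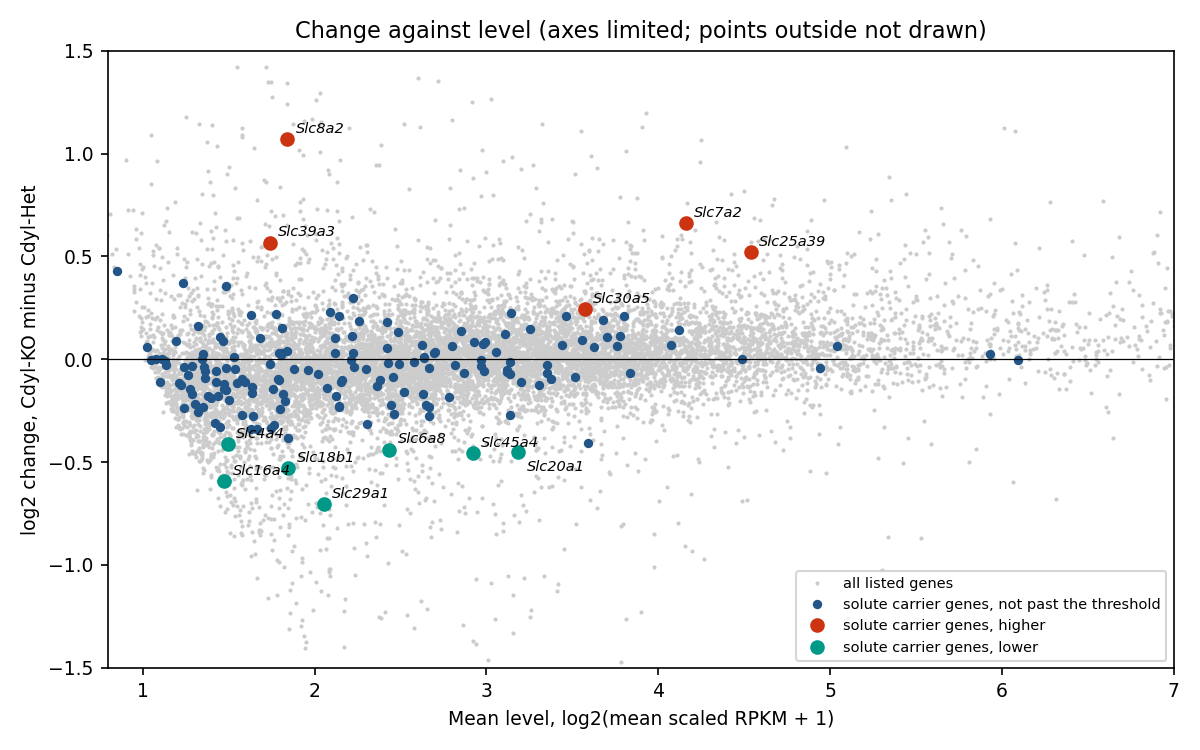
The log2 change (Cdyl-KO minus Cdyl-Het) of each listed gene is plotted against its mean level, log2(mean scaled RPKM + 1), with all genes in grey, the 158 solute carrier genes that did not pass in blue, the 5 higher ones in red and the 7 lower ones in green. The axes are limited to changes of up to 1.5, which leaves out 22 other genes and no solute carrier gene, and the blue points lie mostly close to 0.

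The sequences around the start sites of the 3 genes that passed under every setting tried, Slc8a2, Slc25a39 and Slc29a1, are shown so that the called genes can be compared at their promoters. They run from 250 bases before to 50 bases after the start, from RefSeq on GRCm38.p6, 5′ to 3′ on the gene's strand, and for Slc29a1, which has 8 listed starts, the most upstream one is shown. Capitals mark the GC box (GGGCGG) and the CCAAT box (CCAAT) on either strand.
Slc8a2 (chr7:16129576-16129875, plus strand): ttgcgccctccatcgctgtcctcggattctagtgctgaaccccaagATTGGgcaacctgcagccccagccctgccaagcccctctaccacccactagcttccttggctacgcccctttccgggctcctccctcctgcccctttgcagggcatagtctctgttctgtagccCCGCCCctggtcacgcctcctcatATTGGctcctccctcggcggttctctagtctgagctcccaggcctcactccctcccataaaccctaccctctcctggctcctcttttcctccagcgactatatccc
Slc25a39 (chr11:102407468-102407767, minus strand): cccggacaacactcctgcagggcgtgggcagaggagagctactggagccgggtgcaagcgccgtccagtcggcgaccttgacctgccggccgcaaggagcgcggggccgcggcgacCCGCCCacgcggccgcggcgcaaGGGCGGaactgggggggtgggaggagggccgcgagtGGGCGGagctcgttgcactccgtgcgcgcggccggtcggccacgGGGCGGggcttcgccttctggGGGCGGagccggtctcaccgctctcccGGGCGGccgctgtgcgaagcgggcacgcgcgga
Slc29a1 (chr17:45599569-45599868, minus strand): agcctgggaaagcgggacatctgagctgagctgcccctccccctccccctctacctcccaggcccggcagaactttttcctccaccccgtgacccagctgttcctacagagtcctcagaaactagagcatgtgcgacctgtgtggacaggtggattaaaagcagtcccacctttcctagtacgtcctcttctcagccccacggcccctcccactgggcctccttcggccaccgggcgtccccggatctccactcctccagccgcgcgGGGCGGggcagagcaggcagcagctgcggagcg
The promoter of Slc8a2 held 1 GC box and 2 CCAAT boxes, that of Slc25a39 held 6 GC boxes and that of Slc29a1 held 1 GC box. G and C made up 61.3%, 77.3% and 65.0% of the letters, with 10, 45 and 16 CpG dinucleotides.

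Promoters were found for 129 of the 170 genes (177 starts), and for 9 of the 12 called ones. Their median G and C content was 61.3%, the same as for the 10993 promoters of all genes in the tables. A GC box was found in 70.6% of the solute carrier promoters and in 64.8% of those 10993 promoters, a CCAAT box in 34.5% and 37.6%, and an E box (CACGTG) in 14.1% and 10.02%. Both parts of the RE1 site, which is bound by REST, a repressor of neuronal genes, were searched as well: the left part, TCAGCACC, was found in 1.13% against 1.54% and the right part in 1.13% against 0.819%. The NR5A1 site CAAGGTCA was found in 0.565% against 1.12%. Among the promoters of called genes, 1 match to these 3 motifs was found, the right part of RE1 in Slc39a3. All motifs were searched on both strands, and no 2 of them overlapped in the promoters of called genes.

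The largest change was in calcium exchange. Slc8a2, a sodium/calcium exchanger known mainly from neurons (chromosome 7, 16129826 to 16161063, mm10), was at 1.49, 0.977 and 1.48 scaled RPKM in Cdyl-Het and at 3.76, 4.22 and 3.56 in Cdyl-KO. Every Cdyl-KO value was more than the highest Cdyl-Het value, and the mean rose from 1.32 ± 0.294 to 3.85 ± 0.340 (SD, n = 3 per group), a ratio of 2.92 (log2 change 1.07, SE 0.12, limma adjusted p = 0.00552). The values stood for about 210 to 922 reads. Its relative Slc8a1, the exchanger known from heart and many other tissues, was at a higher level and overlapped between the groups (7.85 ± 0.589 and 7.77 ± 0.785, log2 change -0.02, 95% interval -0.21 to 0.18). Genes of neurons moved in the same direction as Slc8a2: Syn1 and Tubb3 rose by 1.08 and 1.14 on the log2 scale among the 6 of that list given above (2 of 6, with summed levels that did not overlap), while Hand2 of that list had a change of -0.15 without a call. Tubb3 missed the threshold when Cdyl-KO replicate 2 or 3 was omitted (limma adjusted p = 0.0631 and 0.0615; 0.0176 to 0.0631 over all alternatives). Which cells carried the changes of Slc8a2, Syn1 and Tubb3 was not tested. Slc12a5, a potassium/chloride cotransporter also known from neurons, was at 1.55, 1.27 and 1.54 against 2.01, 2.31 and 2.08, without overlap, but did not pass (log2 change 0.36, limma adjusted p = 0.0688).

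**Figure D2:**
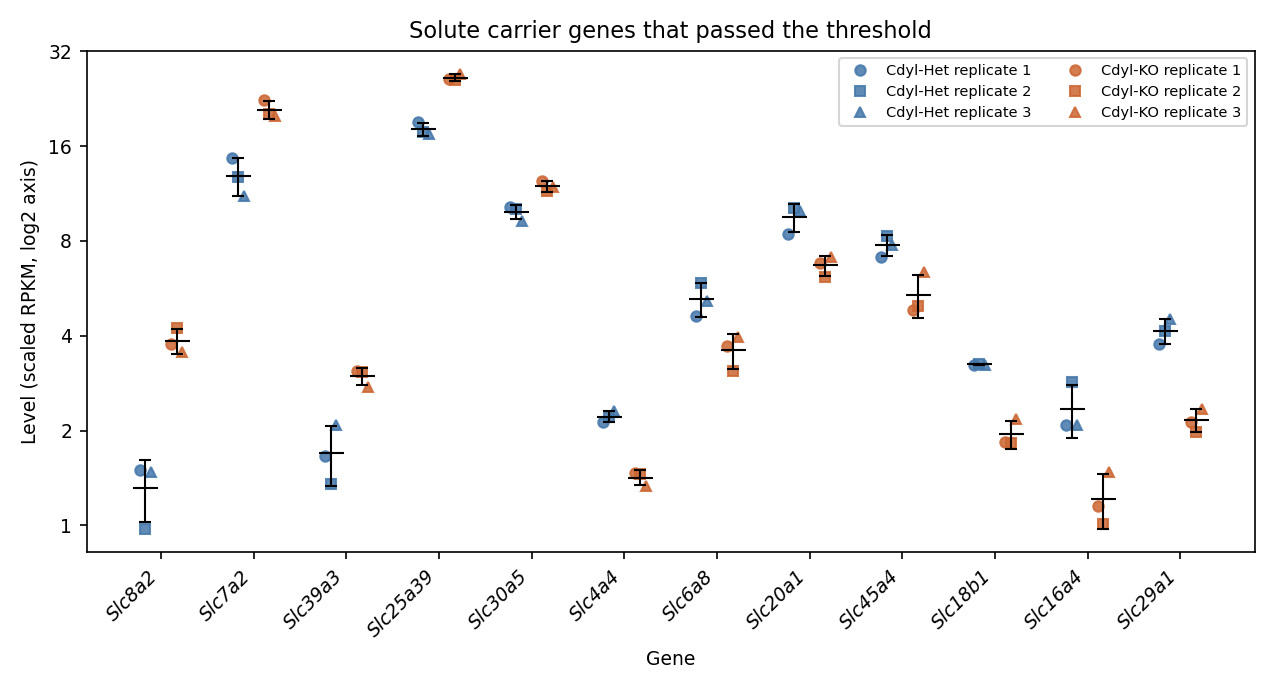
Scaled RPKM (log2 axis) of the 12 solute carrier genes past the threshold in each of the 3 Cdyl-Het (blue) and 3 Cdyl-KO (orange) libraries, with the mean and SD in black, ordered from the largest rise to the largest fall. In each of the 12 genes the points of the groups are apart, from 1.32 against 3.85 scaled RPKM for Slc8a2 to 4.14 against 2.16 for Slc29a1.

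Other carriers of inorganic ions fell or did not pass. Of the 24 genes of this class (bicarbonate, sodium/proton, calcium, chloride, phosphate and sulfate carriers), 1 rose, 2 fell and 21 did not pass, and 17 of the 24 changes were below 0 (median -0.09; 51.0% of all genes were below 0). Slc20a1, a sodium-coupled phosphate importer (chromosome 2, 129198764 to 129211616), was at 8.39, 10.2 and 9.97 scaled RPKM in Cdyl-Het and at 6.82, 6.13 and 7.11 in Cdyl-KO. All Cdyl-KO values were below all Cdyl-Het values, and the mean fell from 9.51 ± 0.979 to 6.69 ± 0.499 (SD, n = 3 per group; log2 change -0.45, SE 0.09, limma adjusted p = 0.0258). Its exons overlap 9830144P21Rik and Gm4430 on the other strand, and reads may be shared. The second phosphate importer, Slc20a2, was at 5.75 ± 0.317 and 4.79 ± 0.228 and did not pass (log2 change -0.22, limma adjusted p = 0.0758).

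Slc4a4, a sodium/bicarbonate cotransporter (chromosome 5, 88886818 to 89239653), was at 2.14, 2.20 and 2.31 in Cdyl-Het and at 1.47, 1.46 and 1.33 in Cdyl-KO (log2 change -0.41, SE 0.08, limma adjusted p = 0.0321). The groups were apart, with a ratio of means of 0.640. Slc4a7, another sodium/bicarbonate cotransporter, was at 5.03 ± 0.309 and 4.01 ± 0.235 and did not pass (limma adjusted p = 0.0566). The proton exchangers of family 9 gave no call among 5 genes: Slc9a8, an exchanger of the Golgi, was at 2.75 ± 0.348 and 1.97 ± 0.192 (limma adjusted p = 0.0854). Slc12a2, the sodium/potassium/chloride cotransporter, was at 11.9 ± 0.831 and 14.0 ± 0.753 without overlap, but did not pass (limma adjusted p = 0.104). Slc20a1 missed the threshold when Cdyl-Het replicate 2 or 3, or 1 of the first 2 Cdyl-KO replicates, was omitted (limma adjusted p = 0.0867, 0.0958, 0.0745 and 0.0738; 0.0118 to 0.0958 over all alternatives), and Slc4a4 missed it without any 1 of the 6 libraries (0.0758 to 0.104; 0.0149 to 0.119 over all).

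Among nucleoside carriers, 1 gene fell, with the largest fall of the 170 genes on the log2(scaled RPKM + 1) scale. Slc29a1, the main equilibrative nucleoside transporter of the plasma membrane (chromosome 17, 45585200 to 45599606), was at 3.76, 4.14 and 4.53 scaled RPKM in Cdyl-Het and at 2.13, 1.98 and 2.35 in Cdyl-KO. The highest Cdyl-KO value was well below the lowest Cdyl-Het value, and the mean fell from 4.14 ± 0.384 to 2.16 ± 0.183 (SD, n = 3 per group), a ratio of 0.520 (log2 change -0.70, SE 0.08, limma adjusted p = 0.00776). By the ratio of means Slc16a4, a carrier described further on, was lower still, at 0.517. Exons of Slc29a1 overlap Gm17080 on the other strand. The other members of its family did not pass: Slc29a2 was at 2.96 ± 0.330 and 2.82 ± 0.288, Slc29a3, a lysosomal nucleoside transporter, at 3.19 ± 0.297 and 4.16 ± 0.447 (limma adjusted p = 0.0890) and Slc29a4 at 1.05 ± 0.1998 and 1.66 ± 0.439. In the same libraries 4 of 9 endothelial and 7 of 8 Sertoli cell marker genes fell, with sums that did not overlap (given above). Sry, also of the Sertoli cell list, rose (log2 change 0.39, limma adjusted p = 0.0211). The part of these cells in the fall of Slc29a1 was not tested.

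The other genes of the mixed class of nucleoside, vitamin, choline, heme and organic cation carriers did not pass. Over all 18 genes of the class, with Slc29a1 as the 1 that fell, 7 changes were above 0 and 11 below. Slc44a1, a choline transporter, was at 8.23, 9.19 and 8.46 against 7.03, 7.39 and 6.54 and lay just outside the threshold (log2 change -0.27, limma adjusted p = 0.0503). It passed under 4 of the 13 alternatives (no scaling, median-ratio scaling, pseudocount 2 and a minimum mean of 2), and its adjusted p was 0.0178 to 0.130 over all. Slc22a17, a receptor for a siderophore-binding lipocalin, was at 7.13 ± 0.260 and 8.52 ± 0.693 (limma adjusted p = 0.0882). The folate and thiamine carriers Slc19a1 and Slc19a2 overlapped between the groups (2.46 ± 0.191 and 2.55 ± 0.297; 2.60 ± 0.450 and 2.35 ± 0.239).

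Among carriers of amino acids and peptides, 1 of 23 genes rose and 22 did not pass. Slc7a2, a carrier of arginine, lysine and ornithine (chromosome 8, 40862396 to 40922308), was at 14.7, 12.8 and 11.1 scaled RPKM in Cdyl-Het and at 22.5, 20.2 and 20.0 in Cdyl-KO. The groups were apart, and the mean rose from 12.9 ± 1.79 to 20.9 ± 1.38 (SD, n = 3 per group; log2 change 0.66, SE 0.10, limma adjusted p = 0.0129). Exons of Slc7a2 overlap Gm26584 on the other strand. Without Cdyl-Het replicate 2 its adjusted p was 0.0532 (0.0094 to 0.0532 over all alternatives). The related cationic carrier Slc7a1 was lower in level and at 3.63 ± 0.400 and 3.08 ± 0.136 (log2 change -0.18, 95% interval -0.37 to 0.01).

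The heavy chain Slc3a2, which brings several light chains of family 7 to the cell surface, and its light chain Slc7a5, a carrier of large neutral amino acids, did not pass. Slc3a2 was at 15.2, 15.5 and 15.8 in Cdyl-Het and at 17.6, 16.2 and 18.0 in Cdyl-KO, and Slc7a5 at 10.3, 14.6 and 13.4 against 9.23, 9.33 and 9.33. In both genes the groups did not overlap, with Slc3a2 higher and Slc7a5 lower in Cdyl-KO (limma adjusted p = 0.157 and 0.0786), and the difference between the 2 genes was not tested. Slc7a5 passed without Cdyl-Het replicate 1, its lowest Cdyl-Het library (log2 change -0.54, limma adjusted p = 0.00931). It also passed without scaling (log2 change -0.53, limma adjusted p = 0.0293), and its adjusted p was 0.00931 to 0.212 over all alternatives. Slc7a11, the light chain that exchanges cystine for glutamate, was at 0.605, 0.366 and 0.640 against 1.18, 0.970 and 1.04 and did not pass (log2 change 0.43, limma adjusted p = 0.116). Slc38a2, a sodium-coupled carrier of small neutral amino acids, was the most abundant of the class and overlapped between the groups (31.2 ± 3.22 and 32.6 ± 0.830, 95% interval of the log2 change -0.11 to 0.25).

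Genes of the amino acid response, the programme through which cells short of amino acids raise synthesis and uptake, moved both ways. Of 21 in the tables, 3 rose (4.82% of all genes did), 3 fell (3.09% of all genes did) and 15 did not pass. Atf4, its transcription factor, rose from 42.4 ± 3.5 to 59.8 ± 3.14 scaled RPKM and Asns, asparagine synthetase, from 17.8 ± 2.80 to 31.2 ± 2.55 (SD, n = 3 per group; limma adjusted p = 0.0127 and 0.0120), while Psat1, an enzyme of serine synthesis, fell from 7.61 ± 0.763 to 4.66 ± 0.285 (limma adjusted p = 0.00967). The other calls were Ppp1r15a (higher, limma adjusted p = 0.0275) and Phgdh and Mthfd2 (lower, 0.0336 and 0.0471). Their calls under the alternatives are not given here. Without Cdyl-Het replicate 2 the adjusted p of Asns was 0.0514 (0.00843 to 0.0514 over all alternatives) and that of Atf4 0.0532. Atf4 also missed the threshold without Cdyl-Het replicate 3 (0.0517; 0.0107 to 0.0532 over all).

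Of the 22 metal ion carriers (zinc, iron, copper and magnesium), 2 rose, both zinc transporters, and 20 did not pass. Over all genes 4.82% rose. By limma 9 of the 22 had an unadjusted p under 0.05, beside 25.6% of all genes. The groups did not overlap for 5 as higher and 6 as lower, beside 16.8% and 15.0% of all genes. Under median-ratio scaling, without a trend or without Cdyl-Het replicate 3, 1 of the class was called. With the replicate number as a block or without any 1 of the other libraries it was 0, and without scaling 4. In the reported fit changes were above 0 in 11 and below 0 in 11. Slc39a3, a zinc importer (chromosome 10, 81028538 to 81037426), was at 1.65, 1.35 and 2.08 scaled RPKM in Cdyl-Het and at 3.10, 3.07 and 2.76 in Cdyl-KO. The groups were apart, and the mean rose from 1.70 ± 0.367 to 2.98 ± 0.190 (SD, n = 3 per group; log2 change 0.57, SE 0.11, limma adjusted p = 0.0302). Slc30a5, which loads zinc into the secretory pathway (chromosome 13, 100802648 to 100833427), was at 10.3, 10.1 and 9.28 against 12.4, 11.496 and 11.8 and rose by 0.25 (SE 0.06, limma adjusted p = 0.0487). Left unscaled, its change was 0.12 and it did not pass (0.177). The call of Slc30a5 was lost without any 1 of the 6 libraries (limma adjusted p = 0.0729 to 0.148, and 0.0443 to 0.177 over all alternatives). It was also lost under median-ratio scaling, without a trend and with the replicate number as a block (0.0507, 0.0666 and 0.112). The call of Slc39a3 was lost without Cdyl-Het replicate 1 or 2 or any 1 of the Cdyl-KO libraries (0.0717, 0.0739, 0.0923, 0.0834 and 0.0634). With the block it was lost as well (0.0957), and the range was 0.0282 to 0.0957 over all.

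Slc30a6, whose protein pairs with that of Slc30a5, lay the other way without passing (4.47 ± 0.375 and 3.42 ± 0.479, log2 change -0.31, limma adjusted p = 0.0999). Slc39a7, a zinc channel of the endoplasmic reticulum, was at 10.8, 11.4 and 10.6 against 13.2, 12.6 and 12.1 and did not pass (limma adjusted p = 0.0787). Slc39a10, the most abundant zinc importer, had overlapping groups (21.4 ± 1.75 and 21.4 ± 0.573, 95% interval of the log2 change -0.16 to 0.16), as did Slc39a1 (15.4 ± 0.348 and 16.2 ± 0.732). Slc40a1, the iron exporter, was at 1.80 ± 0.182 and 1.46 ± 0.186 and Slc11a2, an iron importer, at 5.88 ± 0.164 and 6.58 ± 0.299, both without a call. Of the zinc response genes, Mtf1, Mt1 and Mt2 were in the tables and 0 of 3 passed by limma, also at an unadjusted p under 0.05 (0 of 3).

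**Figure D3:**
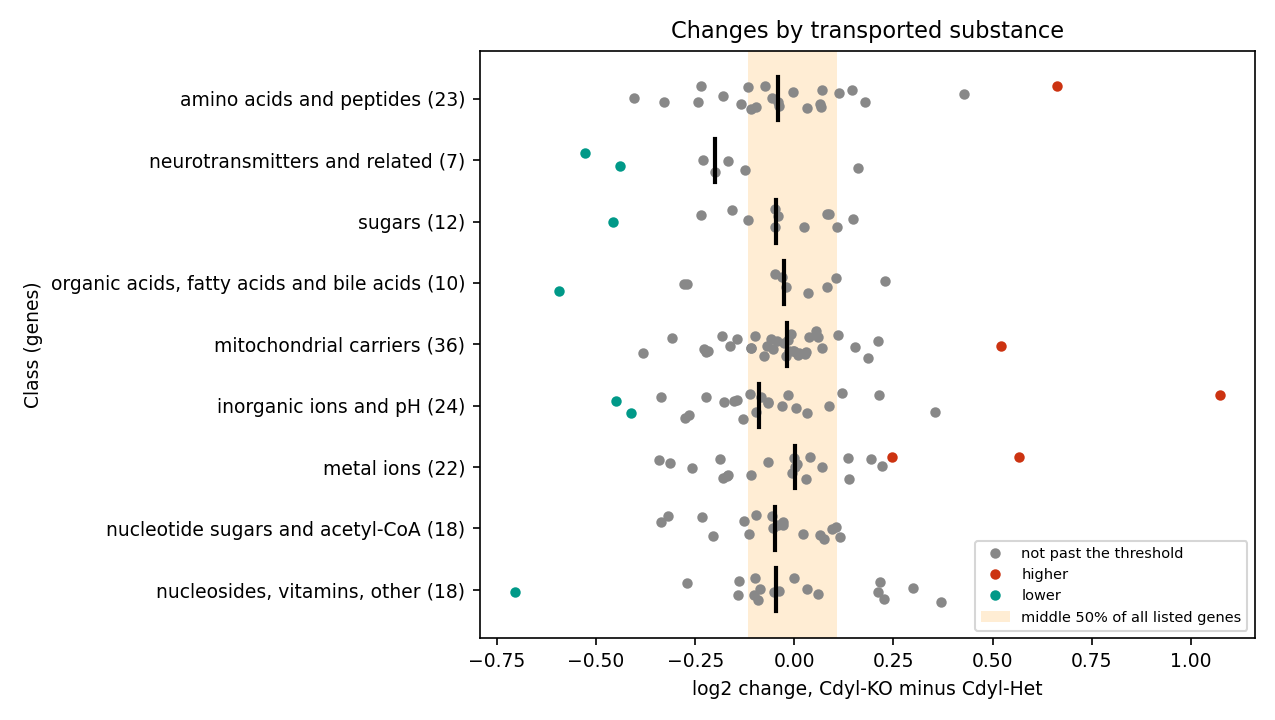
The log2 change (Cdyl-KO minus Cdyl-Het) of each of the 170 genes by class, with the number of genes in parentheses, the class median as a black bar and the middle 50% of all listed genes shaded (-0.12 to 0.11). Points are spread vertically for clarity. Class medians lay between -0.20 (neurotransmitters and related) and 0.00 (metal ions), with called genes in red (higher) and green (lower).

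Mitochondrial carriers were the most abundant class and nearly level between the groups. The 36 genes of family 25 had a summed level of 316 to 328 scaled RPKM in Cdyl-Het and 324 to 337 in Cdyl-KO, 1 rose and 35 did not pass. Slc25a39, which is needed for the import of glutathione into mitochondria (chromosome 11, 102402985 to 102407946), was at 19.1, 17.7 and 17.5 scaled RPKM in Cdyl-Het and at 26.1, 25.9 and 27.2 in Cdyl-KO. The groups were far apart for their spread, with a mean of 18.1 ± 0.854 against 26.4 ± 0.695 (SD, n = 3 per group; log2 change 0.52, SE 0.05, limma adjusted p = 0.00435, the lowest of the 170 genes). Its relative Slc25a40 was at 1.65 ± 0.131 and 1.29 ± 0.209, and Slc25a37, which imports iron for heme synthesis, at 4.85 ± 0.730 and 4.01 ± 0.567, neither with a call. Slc25a39 and Slc25a37 are both also known from erythroid cells, whose hemoglobin genes had summed levels that overlapped between the groups, with Hbb-bt lower in all Cdyl-KO libraries; their part in these levels was not tested.

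The ATP/ADP exchangers Slc25a4 and Slc25a5 were the most abundant of the 170 genes. Slc25a4 was at 64.8, 68.6 and 68.8 against 70.9, 66.1 and 64.8 scaled RPKM (95% interval of the log2 change -0.14 to 0.13), and Slc25a5 at 58.1, 61.8 and 58.0 against 61.4, 54.2 and 65.9 (-0.16 to 0.21). Slc25a3, the phosphate carrier, was at 30.2 ± 1.76 and 29.2 ± 1.05 (-0.18 to 0.09). In all 3 the groups overlapped. The intervals rest on the spread among these 6 samples and on the scaling. Without scaling, the log2 changes of Slc25a4, Slc25a5 and Slc25a3 were -0.14, -0.11 and -0.18, without a call. Slc25a18, a glutamate carrier, was at 2.81, 2.77 and 3.61 against 2.14, 1.89 and 2.30 and did not pass (log2 change -0.38, limma adjusted p = 0.0745). Its exons overlap Atp6v1e1 on the other strand.

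**Figure D4:**
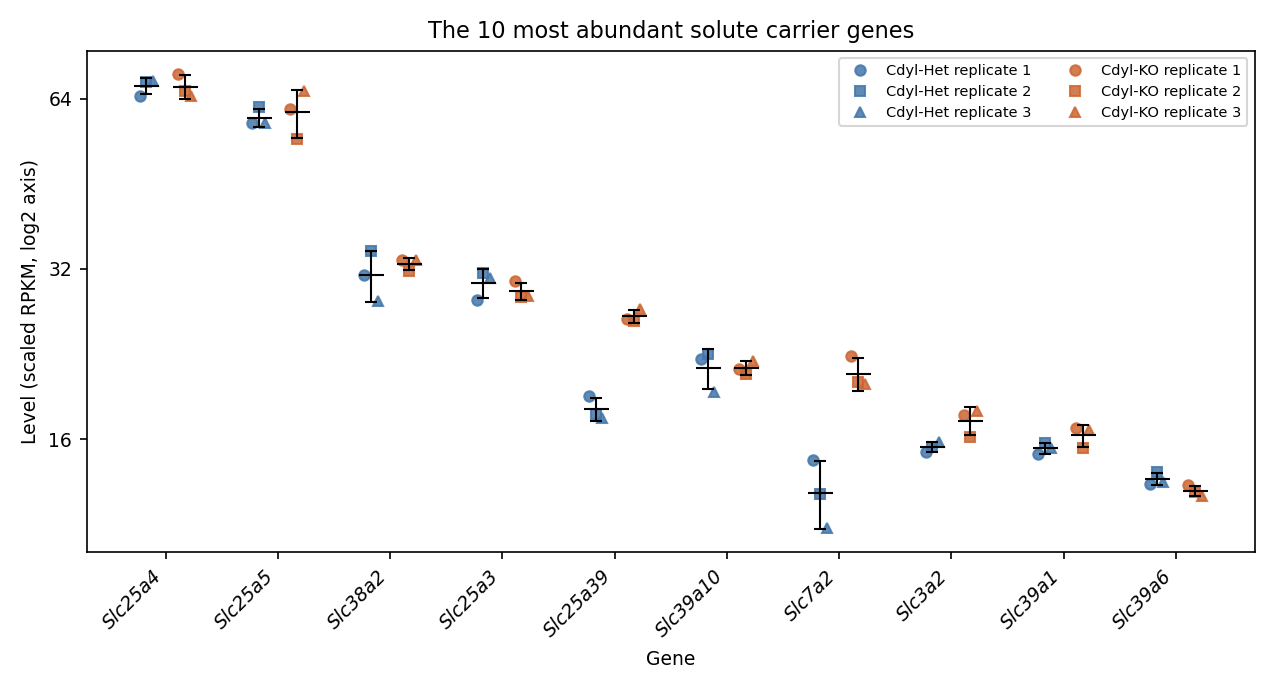
Scaled RPKM (log2 axis) of the 10 solute carrier genes with the highest mean level in each Cdyl-Het (blue) and Cdyl-KO (orange) library, with mean and SD in black. Slc25a39 (18.1 against 26.4) and Slc7a2 (12.9 against 20.9) are the 2 of the 10 that passed the threshold, and Slc25a4 and Slc25a5 lie highest, near 67 and 60 scaled RPKM.

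The class of neurotransmitter and related carriers (families 6, 17 and 18) was small. Of 7 genes, 2 fell and 5 did not pass (over all genes 3.09% fell), 6 changes were below 0 (51.0% of all genes were), and the summed level was 25.3 to 27.2 scaled RPKM in Cdyl-Het and 20.6 to 23.1 in Cdyl-KO. Under median-ratio scaling, without a trend or without any 1 of the Cdyl-KO libraries, 1 of the 7 was called. With the replicate number as a block or without Cdyl-Het replicate 2 or 3 it was 0, and without scaling 4. Slc18b1, a vesicular polyamine transporter (chromosome 10, 23796986 to 23827968), was at 3.24, 3.26 and 3.23 in Cdyl-Het and at 1.84, 1.82 and 2.18 in Cdyl-KO. The Cdyl-Het values were almost the same and all Cdyl-KO values lay below them (3.24 ± 0.0179 and 1.95 ± 0.201, SD, n = 3 per group; log2 change -0.53, SE 0.08, limma adjusted p = 0.0124). Slc6a8, the creatine transporter (chromosome X, 73673150 to 73682502), was at 4.61, 5.90 and 5.17 against 3.71, 3.09 and 3.97 and fell by 0.44 (SE 0.10, limma adjusted p = 0.0487). The taurine carrier Slc6a6 was at 9.32 ± 0.416 and 8.47 ± 0.409 and the glycine carrier Slc6a9 at 3.77 ± 0.428 and 3.06 ± 0.285, without a call. Slc18b1 missed the threshold without Cdyl-Het replicate 2 or 3 (0.0523 and 0.0540; 0.00718 to 0.0540 over all alternatives). Slc6a8 missed the threshold without Cdyl-Het replicate 2 or 3 or any 1 of the Cdyl-KO libraries (limma adjusted p = 0.124, 0.135, 0.112, 0.113 and 0.0654). It was also missed under median-ratio scaling, without a trend and with the replicate number as a block (0.0506, 0.0585 and 0.123). Over all alternatives the adjusted p of Slc6a8 was 0.0188 to 0.135.

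Carriers of organic acids and of sugars each had 1 fall. Slc16a4, a member of the monocarboxylate transporter family (chromosome 3, 107291230 to 107312115), was at 2.08, 2.85 and 2.09 scaled RPKM in Cdyl-Het and at 1.15, 1.01 and 1.48 in Cdyl-KO. Cdyl-Het replicate 2 stood above the other libraries, the groups did not overlap, and the mean fell from 2.34 ± 0.442 to 1.21 ± 0.240 (SD, n = 3 per group; log2 change -0.59, SE 0.13, limma adjusted p = 0.0417). The other 9 genes for organic, fatty and bile acids did not pass, among them the fatty acid carriers Slc27a1 (6.39 ± 0.174 and 6.85 ± 0.831) and Slc27a3 (5.94 ± 0.433 and 4.75 ± 0.677). Slc45a4, of a family related to sucrose transporters (chromosome 15, 73577424 to 73645762), was at 7.13, 8.32 and 7.78 against 4.84, 4.97 and 6.36 and fell by 0.46 (SE 0.10, limma adjusted p = 0.0406). Of the 12 sugar carriers the other 11 did not pass, among them Slc2a4, the insulin-regulated glucose transporter (2.74 ± 0.386 and 2.61 ± 0.344), and Slc50a1 (8.03 ± 0.436 and 9.04 ± 1.13). Slc16a4 lost its call without any 1 of the 6 libraries (limma adjusted p = 0.0564 to 0.114, and 0.0208 to 0.121 over all alternatives). Slc45a4 lost its call without each library but Cdyl-KO replicate 3 (0.0573 to 0.126, and 0.0151 to 0.126 over all). That call was also lost without a trend and with the replicate number as a block (0.0529 and 0.0712).

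Carriers of nucleotide sugars and acetyl-CoA, which feed glycosylation and acetylation in the Golgi and endoplasmic reticulum, gave no call by limma (0 of 18, and 2 of 18 at an unadjusted p under 0.05, beside 25.6% of all genes). Those 2 were Slc35b3, a carrier of the sulfate donor (2.46, 2.57 and 2.31 against 1.89, 1.71 and 1.59 scaled RPKM), and Slc35d1, a carrier of UDP-glucuronic acid (2.59, 2.88 and 2.83 against 2.17, 1.84 and 2.05). In both the groups did not overlap (limma adjusted p = 0.0565 and 0.0578). Without a trend both passed (0.0339 and 0.0402), and without scaling 3 of the class did. The most abundant of the class were Slc35a1, the CMP-sialic acid carrier (12.2 ± 0.872 and 12.9 ± 1.596), and Slc35a4 (10.4 ± 0.511 and 11.1 ± 0.635).

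Partners of the carriers were mostly level as well. Of 22 listed partner genes, 2 rose (4.82% of all genes did) and 20 did not pass. Bsg, the chaperone of monocarboxylate transporters, rose from 75.2 ± 3.06 to 93.8 ± 4.39 scaled RPKM (means with SD, n = 3 each; log2 change 0.32, limma adjusted p = 0.0228), and Slc9a3r1, a scaffold that binds ion transporters, from 13.0 ± 1.15 to 19.3 ± 1.03 (log2 change 0.53, limma adjusted p = 0.0104). Without scaling, Bsg was at 0.18 and did not pass (0.0814), and it missed the threshold without any 1 of the 6 libraries (0.0527 to 0.0805; 0.0219 to 0.0922 over all alternatives). Of the subunits of the sodium pump, whose gradient drives many carriers, Atp1b2 and Atp1b3 did not pass, at 21.2 ± 3.76 and 14.6 ± 1.13 and at 17.8 ± 1.27 and 14.8 ± 0.903 (limma adjusted p = 0.0610 and 0.0779).

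Seen across all 170 genes, small differences below 0 were more frequent than those above. The median log2 change was -0.04, beside -0.00 for all genes, and 62.9% of the solute carrier genes were below 0, beside 51.0% of all genes. Groups did not overlap for 57 of the 170 genes (33.5%, beside 31.8% of all genes). This was found for 20 of the 170 as higher (11.8%, beside 16.8% of all genes) and for 37 as lower (21.8%, beside 15.0%). An adjusted p between 0.05 and 0.1 was found for 14 genes, 4 above and 10 below 0. The solute carrier genes were lower in level than all genes, with a median of 3.38 against 5.98 scaled RPKM. By bands of level, the median was -0.09 for 49 solute carrier genes under 2 scaled RPKM (-0.09 for all genes there). It was -0.08 for 62 between 2 and 5 (-0.05), -0.03 for 38 between 5 and 10 (0.01) and 0.07 for 21 at 10 or more (0.06). The part of level in these medians was not tested. The median coefficient of variation within a group was 8.17% in Cdyl-Het and 8.86% in Cdyl-KO. Summed over the 170 genes, the level was 942 to 971 scaled RPKM in Cdyl-Het and 953 to 964 in Cdyl-KO, so the summed levels overlapped.

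**Figure D5:**
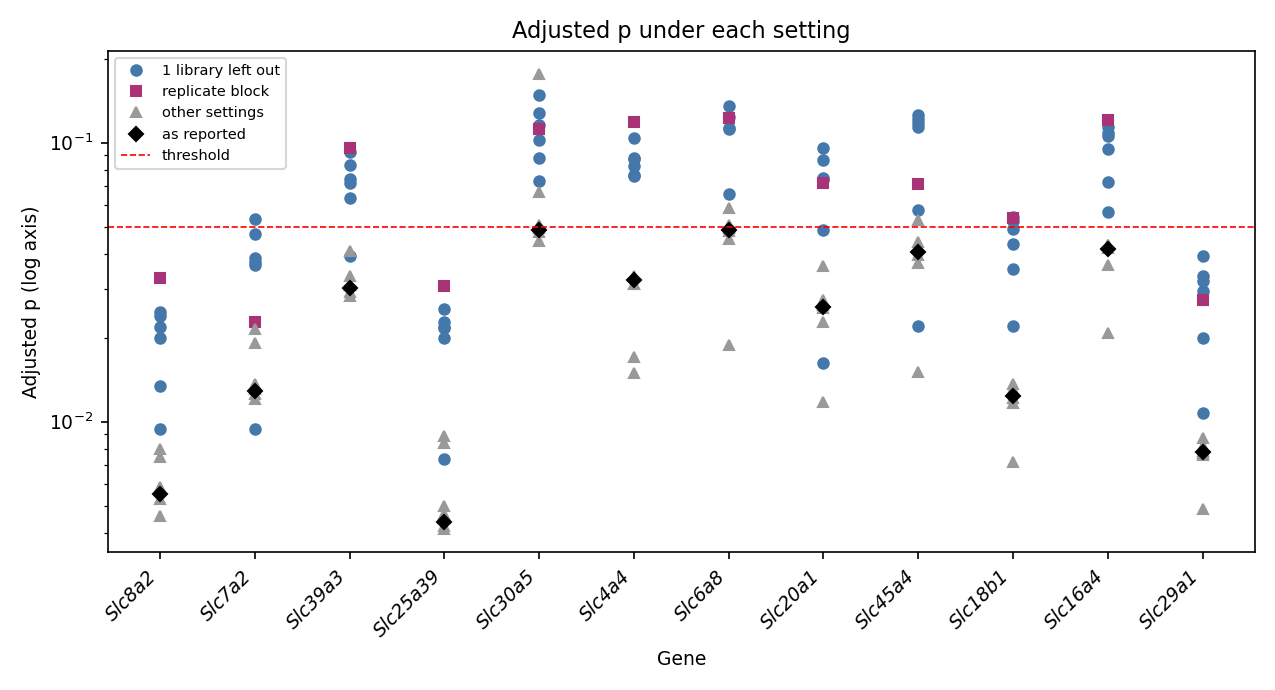
Limma adjusted p (log axis) of the 12 called genes as reported (black), with 1 library left out (blue), with the replicate number as a block (purple) and under the other settings (grey), with the threshold of 0.05 as a dashed line. Slc8a2, Slc25a39 and Slc29a1 stay below the line throughout (up to 0.0326, 0.0306 and 0.0393), and the other 9 genes cross it with at least 1 library left out.

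The number of calls fell with any 1 library omitted, over all genes as among the solute carriers. Over all genes the called share went from 7.92% to between 2.22% and 5.89%. With the Cdyl-Het libraries omitted in turn (replicates 1, 2 and 3), 7, 3 and 5 of the 12 called solute carrier genes still passed. With the Cdyl-KO libraries omitted in the same way, 5, 5 and 7 of the 12 passed.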

How the data were processed

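For each library the authors deposited a list of 11736 gene symbols with 1 value each. STAR, featureCounts 1.6.4 (Subread) and mm10 are named per the submitters' processing notes. Which annotation, strand setting and gene filter were used, and how counts became values, is not stated there. The deposited values carry no unit and were taken as RPKM from the values themselves. A scaling factor per library was applied (unweighted trimmed mean of log ratios to the library with the upper quartile nearest the mean, 30% of ratios and 5% of levels trimmed at each end). After adding a pseudocount of 1, log2 values were fitted with limma 3.58.1 in R 4.3.3, with group as a single term and a trended empirical Bayes spread, and no further filter on low values.

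Genes were classed by family number. The members, classes and lists were chosen with earlier results of these data known. By rule the text names the called members, the 10 most abundant, and up to 3 called genes of each list. Other genes named are relatives of these, markers, or genes near the threshold or of high level in their class, and were chosen after their values were seen. The 9 organic anion carriers with Slco symbols are not analysed here. Positions and exon overlaps are from GENCODE M21 (GRCm38, which is mm10), where all 170 symbols matched 1 gene. Exons of 51 overlap another gene, and with the strand setting unknown, reads may be shared. Implied read counts rest on the smallest recurring step of value times exon length and are approximate. In 5 simulated sets 200 of all 11736 genes were changed. Limma recovered 72.9% of the changes of 0.5 (log2) and 95.4% of those of 1, and 5.94% of calls were false. The simulated noise was normal, independent between libraries and of the spread that limma itself had fitted. It held no batch effects or outliers, so recovery in the real data may be lower and false calls more frequent. 

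Alternatives were no scaling, median-ratio scaling, pseudocounts of 0.25 and 2, a minimum mean of 2 scaled RPKM, no trend, the replicate block and each library omitted.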

Additional observations from a re-analysis of the deposited data

How the results depend on the processing

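With all libraries, 5 genes were higher and 7 lower, with a median log2 change of -0.0429. Without scaling there were 27 lower (15.9%, beside 13.3% of all genes), and the median was -0.1509 (all genes -0.123). With the replicate number as a block, 3 were higher (Slc8a2, Slc7a2 and Slc25a39) and 1 lower (Slc29a1), while 2.97% of all genes were called. The other called genes missed the threshold there. Nothing says whether the replicate numbers pair the samples. Deviations of same-numbered libraries correlated at -0.052, -0.268 and -0.05, and no library correlated best with its own number. These deviations are taken from the mean of each group, so the correlations depend on one another. They cannot show that no litter or preparation was shared. Leaving out 1 library gave 2 to 4 higher and 1 to 5 lower, with medians of -0.0139 to -0.0555, while 2.22% to 5.89% of all genes were called. The cause was not tested, though these fits have fewer samples. Both totals under the other alternatives were within 1.5 times of the main ones, but the genes differed in part: without a trend 9 of the 12 calls were kept and 4 others entered, and with median-ratio scaling 10 were kept and 1 entered. Counting the 4 symbols that only begin with the pattern, chosen after seeing the data, gave 6 higher and 7 lower. No called gene changed direction under any alternative. Slc16a4 and Slc4a4 have means under 2 scaled RPKM and have no value under that minimum. Depth is implied and not read from counts, and it limits the genes near 1 RPKM most.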
